A study of Gallus gallus with 3 samples.

Results

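The genes that encode histone lysine methyltransferases and demethylases were compared between cultured chicken (Gallus gallus) primordial germ cells (cPGCs) and embryonic stem cells (ESCs) by RNA sequencing. They were chosen by symbol (the EZH, SETD, SETDB, SUV39H, EHMT, SMYD, KMT, KDM and JMJD series with NSD1, ASH1L, DOT1L, JARID2 and PHF2), which found 39 of the 19152 genes in the count table. The symbols came from the authors' second table, in which 11804 of 16030 genes had one. cPGCs, the cultured precursors of eggs and sperm, had 2 libraries (replicates 2 and 3), and ESCs, which the study took as the somatic counterpart, had 1 library (replicate 2). The labels named the same TRIzol extraction and the same sequencing provider for all libraries, and gave no treatment, strain, age or sex for either cell type. Both are cultured derivatives of the early embryo, so neither is tissue taken directly from an embryo. Values were therefore compared between 2 libraries and 1, and the spread between ESC cultures was not measured here. The deposited tables also hold columns headed as replicate 1 of each cell type, which match no sample label and were not used.

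Methyl groups on the lysines of histone H3 and H4 mark different states of chromatin. Trimethylation of H3K4 lies at active promoters, H3K36 and H3K79 methylation along transcribed genes, H3K27 methylation at genes silenced by Polycomb, and H3K9 and H4K20 methylation in heterochromatin. SET domain enzymes (and DOT1L, which has no SET domain) add these groups from S-adenosylmethionine, whereas flavin-dependent KDM1 enzymes and the 2-oxoglutarate-dependent JmjC enzymes remove them. In mouse germ cells several of these marks are reorganised as the cells develop. The roles given below are those known from mammals, and several of the genes act on other proteins as well or instead.

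The libraries held 19754278, 20401551 and 20568106 counts assigned to genes in cPGC replicate 2, cPGC replicate 3 and the ESC library. Mitochondrial genes took 4.44%, 6.54% and 10.1% of them, and 13594, 13394 and 12701 genes had at least 10 counts, so the ESC library stood apart in both measures, whose part in the results below was not tested. The germ cell markers were as labelled, with 45865, 47278 and 16 counts of DAZL and 19644, 24278 and 352 counts of DDX4 in the same order. The pluripotency genes NANOG (4455, 6131 and 4284 counts) and Pou5f3 (6908, 11106 and 10672 counts) were high in each library. Of the fibroblast list, 5 of 6 symbols were matched, and their CPM (counts scaled to a common library size) summed to 623 and 732 in the cPGC libraries against 62.8 in the ESC library. COL3A1 (12768, 8382 and 237 counts) and COL1A2 (1150, 6813 and 701 counts) made up most of that, while DCN had 1, 5 and 123 counts, LUM 22, 55 and 45, and TWIST1 1, 0 and 9. The endoderm list (3 of 4 matched, ALB, TTR and SOX17) summed to 6.61, 4.51 and 0.619 CPM, with SOX17 at 0 in the ESC library. The matched neural gene of 4 (NEUROG2) had 7, 8 and 38 counts, and the matched erythroid gene of 6 (HBE1) had 8, 5 and 0 counts. The part of these cells in the results below was not tested. In bulk RNA, fewer cells of a type and less RNA per cell cannot be told apart.

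Nearly the whole set was expressed in both cell types. Of the 39 genes, 38 passed the filter of at least 10 counts in 1 library or more, and each of these 38 reached 81 counts or more in all libraries. The exception was SMYD1, a methyltransferase of heart and skeletal muscle, with 5, 1 and 0 counts in cPGC replicate 2, cPGC replicate 3 and the ESC library. A count of 0 allows a true value of up to 3 counts, and these values lie near that floor. TPM (transcript abundance computed here from the counts and the exon length of each gene) allows levels of different genes to be compared within a library. The 38 genes ranged from 7.11 to 169 TPM in cPGC replicate 2, from 6.74 to 159 in cPGC replicate 3 and from 3.87 to 144 in the ESC library. Their median was 41.4, 39.6 and 34.3 TPM, against 20.6, 17.7 and 13.5 TPM over all 14489 genes tested. The TPM of all genes was higher in the cPGC libraries by a median of 0.46 on the log2 scale relative to TMM-scaled CPM, so differences between the cell types are given below on the TMM scale unless TPM is named.

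**Figure D1:**
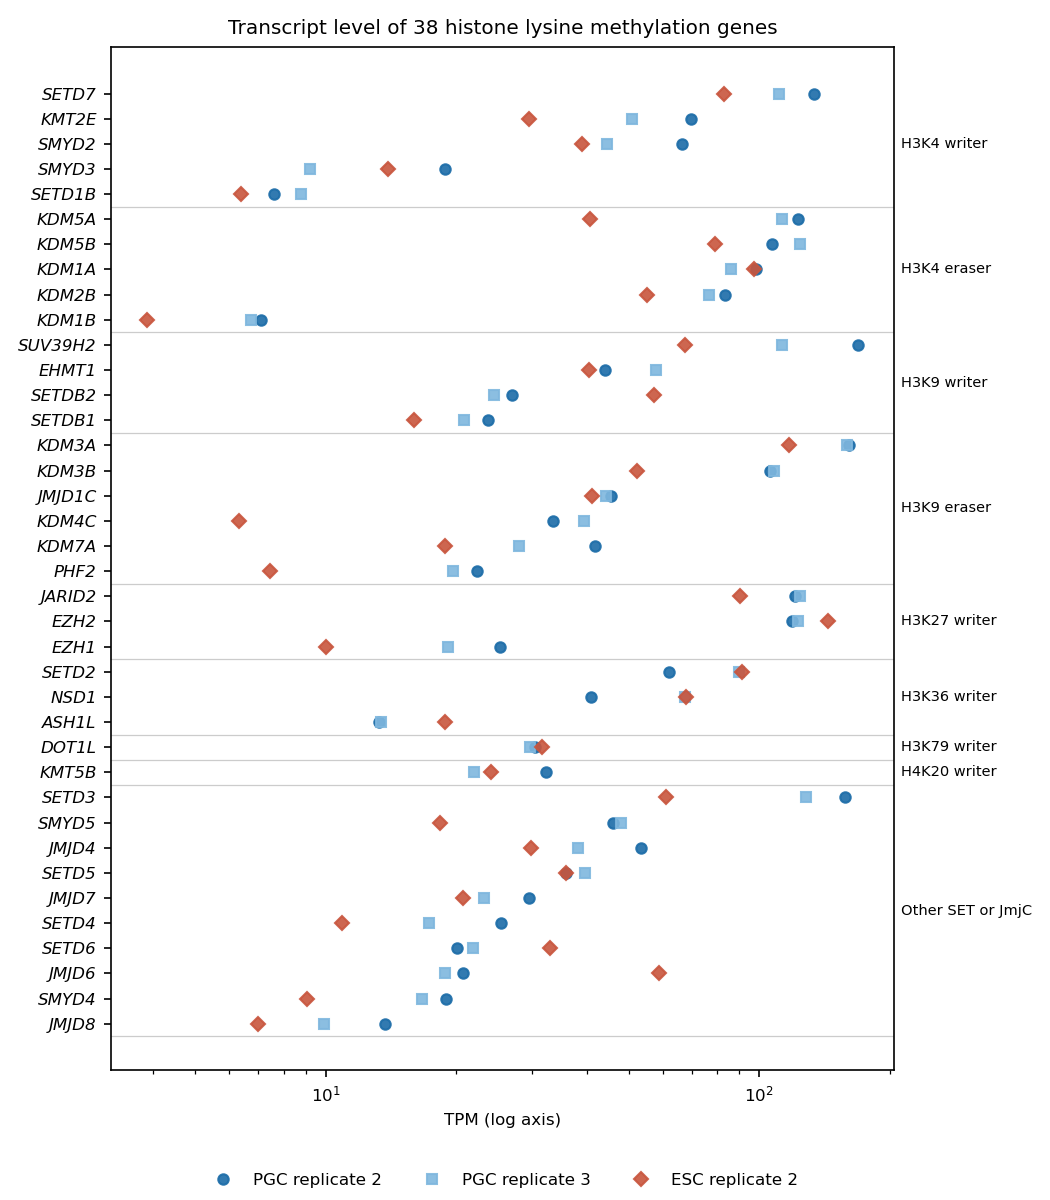
TPM (log axis) of the 38 genes tested, grouped by the residue and direction of the reaction, with a circle for cPGC replicate 2, a square for cPGC replicate 3 and a diamond for the ESC library (PGC and ESC in the key). SUV39H2 (169 TPM) and KDM3A (159 TPM) are the highest in the cPGC libraries and EZH2 (144 TPM) in the ESC library, and the diamonds of KDM4C and JMJD6 stand furthest from their circles and squares.

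The most abundant genes differed in rank between the cell types. SUV39H2, which trimethylates H3K9 in pericentric heterochromatin, was highest in cPGC replicate 2 with 169 TPM, and had 113 TPM in cPGC replicate 3 and 67.6 TPM in the ESC library. KDM3A, an H3K9 demethylase needed for spermatid maturation in mice, had 161, 159 and 117 TPM. SETD3, best known for methylating a histidine of actin, had 158, 128 and 61.0 TPM. EZH2, the main catalytic subunit of Polycomb repressive complex 2 (PRC2), led the ESC library with 144 TPM and had 119 and 123 TPM in cPGCs. At the other end, KDM1B, a demethylase of H3K4 that acts in mouse oocytes, had 7.11, 6.74 and 3.87 TPM. With 1 ESC library, the order of neighbouring genes in it carries no error and was not tested.

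Most of the genes differed little between the cell types. By edgeR's quasi-likelihood test, 5 of the 38 genes were higher in cPGCs (13.2%, against 21.2% of all 14489 genes tested) and 5 were lower (13.2%, against 20.6%) at an adjusted p under 0.05, and 28 did not pass. At an unadjusted p under 0.05 there were 7 higher and 7 lower. The share of all genes at that threshold was not computed, and 41.7% of them passed the adjusted threshold in either direction. A second measure asked for at least a 2-fold difference in the same direction in both cPGC libraries. It held for 3 genes higher in cPGCs (7.89%, against 21.6% of all genes) and 2 lower (5.26%, against 15.8%), each of which also passed the test. Over the 38 genes the log2 ratio had a median of 0.01 (−0.04 in replicate 2 and 0.08 in replicate 3), beside 0.03 over all genes tested. Their median absolute log2 ratio was 0.52 beside 0.87 over all genes, and 28 of the 38 (73.7%) lay within 2-fold of the ESC library in both cPGC libraries beside 47.9% of all genes. Among the 8914 genes as deeply covered (81 counts or more in each library), the median absolute log2 ratio was 0.61. Of these, 38.9% passed the test in either direction, beside 26.3% of the 38. The 2-fold measure held in either direction for 21.9% of them, beside 13.2% of the 38, a smaller contrast than against all genes.

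**Figure D2:**
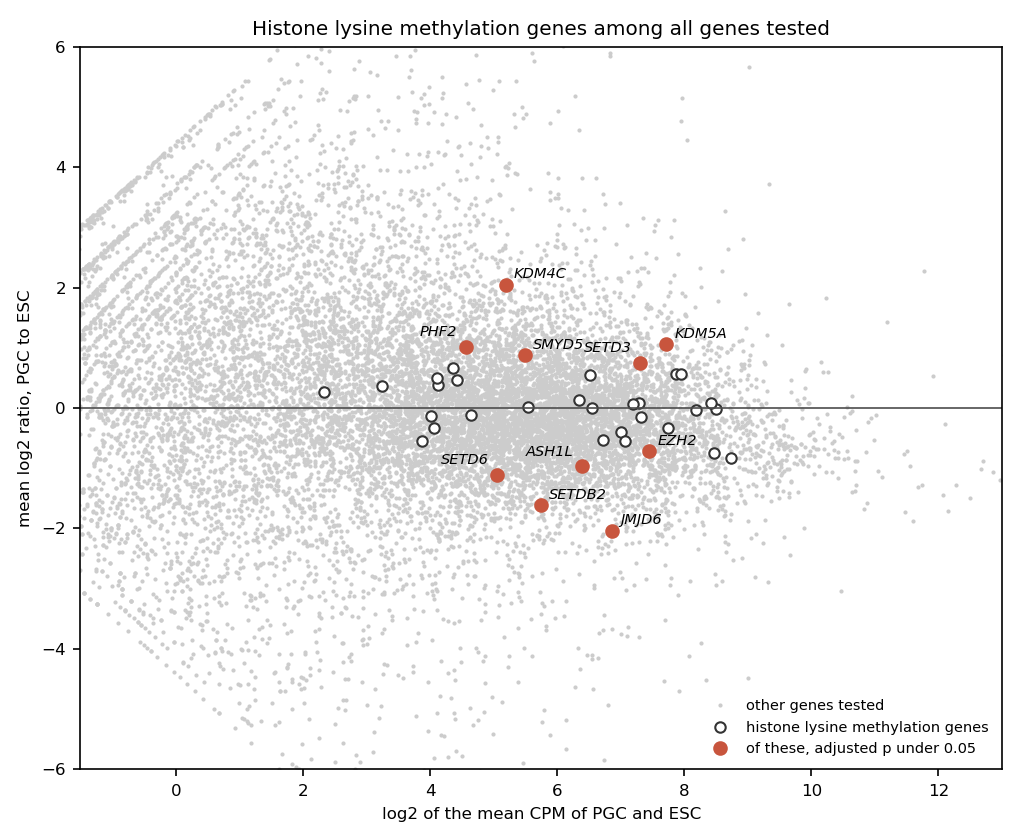
Mean log2 ratio of cPGC to ESC (vertical axis) against the log2 of the mean CPM (horizontal axis) for the genes tested, with the histone lysine methylation genes as circles, filled where the adjusted p was under 0.05. The 38 circles lie between −2.04 and 2.05, and 638 of the other 14451 genes fall outside the axes.

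The balance of higher and lower genes followed the scaling, among the 38 genes as among all genes tested. With libraries scaled to total counts, the median of all genes moved up by 0.31. The same test then called 9 of the 38 genes higher and 3 lower in place of 5 and 5. Over all genes tested, 28.7% were then called higher and 14.2% lower, in place of 21.2% and 20.6%. EZH1, KDM3B, KMT2E and SUV39H2 were gained as higher, and ASH1L and EZH2 were lost as lower. DESeq2 called the same 5 genes higher and the same 5 lower. The labels do not state whether the libraries came from separate cultures, and the study's methods call them biological replicates. The p-values rest on the spread between the cPGC libraries and on the spread shared across all genes. The fit had 1 residual and 8.92 prior degrees of freedom. The ESC library was assumed to vary like the cPGC libraries.

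**Figure D3:**
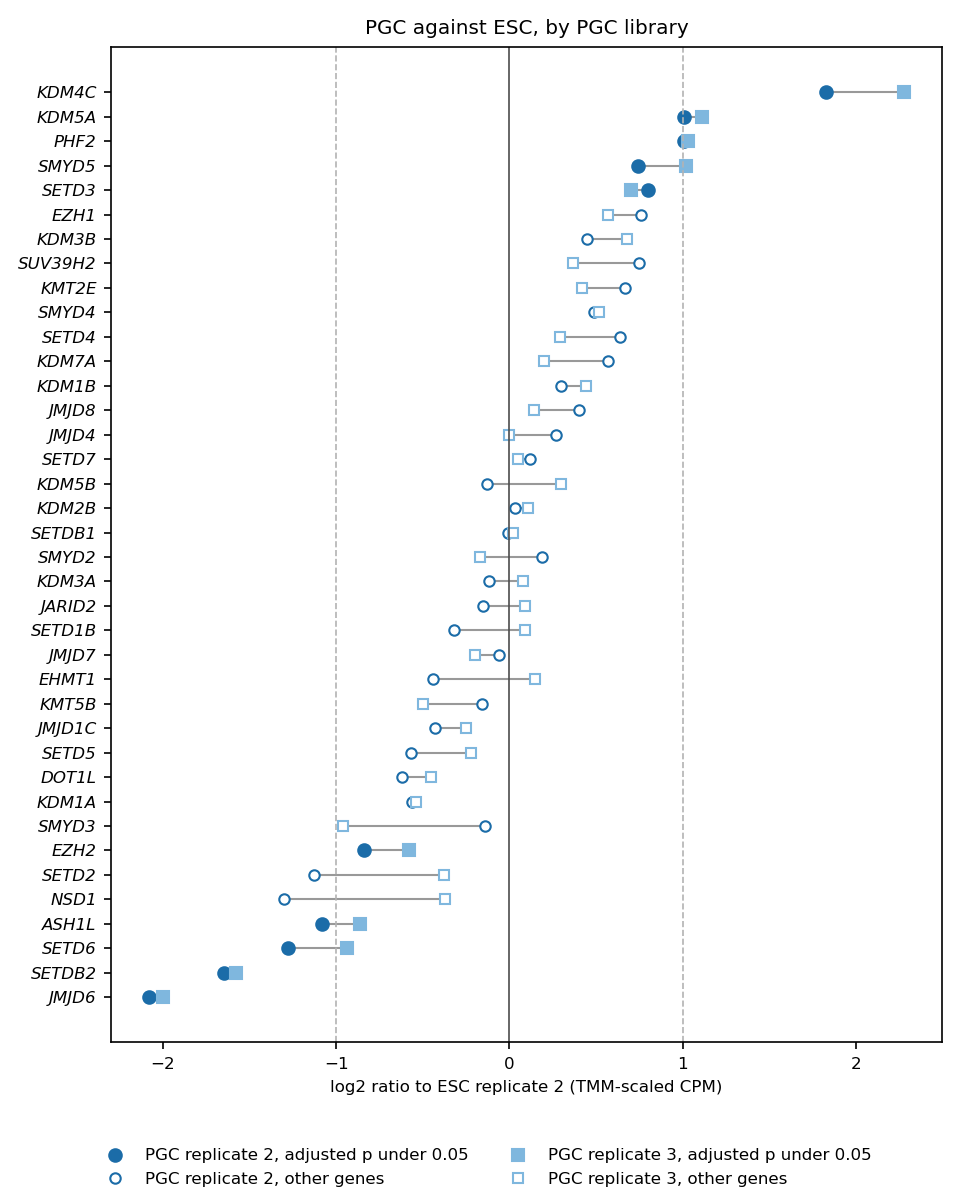
Log2 ratio of each cPGC library to the ESC library (horizontal axis, TMM-scaled CPM) for the 38 genes tested, ordered by their mean, with circles for replicate 2, squares for replicate 3 and filled symbols where the adjusted p was under 0.05. Dashed lines mark 2-fold differences, which KDM4C, KDM5A, PHF2, SETDB2 and JMJD6 reach in both cPGC libraries.

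Among the demethylases of H3K9 found by symbol, 2 of 6 genes rose in cPGCs and 0 fell (median log2 ratio 0.48, range −0.34 to 2.05). For this group and those below, the shares over all genes tested were 21.2% higher and 20.6% lower. KDM4A and KDM4B, H3K9 demethylases that fell outside the choice by symbol, did not pass the test. Their log2 ratios were −0.63 and −0.09, and −0.12 and −0.20. KDM4C (ENSGALG00000020557, chromosome Z, 28100525 to 28396866), which removes trimethyl groups from H3K9 and H3K36, had 1115 and 1420 counts in cPGC replicates 2 and 3 and 248 in the ESC library. These correspond to 49.8, 68.2 and 14.0 CPM, and both cPGC libraries were well above the ESC library. KDM4C was 4.22-fold higher in cPGCs (log2 2.08 ± 0.31, SE, edgeR adjusted p = 0.000676), the highest ratio of the 38 genes. It is the only one of the 39 genes on the Z chromosome. The 805 Z-linked genes tested had a median log2 ratio of 0.77 (0.58 and 0.93 in the cPGC libraries), against −0.01 for the other genes, and 37.1% of them were called higher. KDM4C lay above the Z median by 1.24 and 1.35 on the log2 scale, and 185 Z-linked genes had a higher mean ratio. The sex of the cultures was not given in the labels, and the part of the Z chromosome in the KDM4C value was not tested.

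PHF2 (ENSGALG00000039208, chromosome 12, 6301025 to 6381801), a demethylase of dimethylated H3K9 that reads trimethylated H3K4, had 703, 665 and 276 counts, or 31.4, 31.9 and 15.5 CPM. The cPGC libraries were almost equal and both were above the ESC library, by 2.04-fold (log2 1.03 ± 0.28, SE, edgeR adjusted p = 0.0146). With log2 ratios of 1.01 and 1.03, it stood just past the 2-fold threshold. The more abundant KDM3A did not pass the test, with 336, 385 and 365 CPM and cPGC libraries on either side of the ESC library. KDM3B, its paralog, had 272, 321 and 200 CPM and an edgeR adjusted p of 0.11. JMJD1C, of the same family, and KDM7A had log2 ratios of −0.43 and −0.25, and of 0.57 and 0.20.

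Of the 4 methyltransferases of H3K9, 0 rose and 1 fell (median log2 ratio −0.07). SETDB2 (ENSGALG00000017006, chromosome 1, 169208519 to 169226576), which trimethylates H3K9, had 575, 561 and 1438 counts, or 25.7, 26.9 and 81.0 CPM. The cPGC libraries were alike and far below the ESC library, which was 3.08-fold higher (log2 −1.62 ± 0.23, SE, edgeR adjusted p = 0.000605). SETDB1, the methyltransferase that silences retroelements with TRIM28, had 93.2, 94.9 and 93.7 CPM (log2 ratios −0.01 and 0.02). Of its exon bases, 11.41% overlapped a gene on the opposite strand that had 0 counts in every library. SUV39H2 had 316, 244 and 188 CPM, higher in both cPGC libraries (log2 0.57 ± 0.28, SE) but with an edgeR adjusted p of 0.119. EHMT1, which dimethylates H3K9 together with G9a, had 122, 185 and 166 CPM, and the cPGC libraries fell on either side of the ESC library.

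The demethylases of H3K4 held 1 gene that rose and 0 that fell among 5 (median log2 ratio 0.08). KDM5A (ENSGALG00000012986, chromosome 1, 60300831 to 60346518), which removes trimethyl groups from H3K4, had 6170, 6127 and 2421 counts, or 276, 294 and 136 CPM. Both cPGC libraries were near one another and above the ESC library by 2.09-fold (log2 1.06 ± 0.26, SE, edgeR adjusted p = 0.00965). Its log2 ratios of 1.01 and 1.11 were also close to the 2-fold threshold. Its paralog KDM5B did not pass, with 302, 405 and 330 CPM and one cPGC library on each side of the ESC library. KDM1A (LSD1), the flavin-dependent demethylase of the CoREST complex, had 109, 110 and 160 CPM and log2 ratios of −0.56 and −0.54 (edgeR adjusted p = 0.0747). KDM2B, which recruits a variant Polycomb complex to CpG islands and demethylates H3K36, had log2 ratios of 0.03 and 0.11. It was counted here in the H3K4 group, including the group's median and its share of summed TPM.

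None of the 5 tested methyltransferases of H3K4 found by symbol passed the test (median log2 ratio 0.01, range −0.55 to 0.55, with 0 higher and 0 lower). KMT2A, which fell outside the choice by symbol, did not pass either (log2 ratios −0.16 and −0.29, edgeR adjusted p = 0.46). SETD7, a monomethyltransferase, was the most abundant, with 164, 157 and 151 CPM. KMT2E, a member of the MLL family without clear methyltransferase activity, had 117, 99.2 and 73.9 CPM and an edgeR adjusted p of 0.096. SMYD3 had 349, 184 and 306 counts, so that only cPGC replicate 3 was low (log2 ratios −0.14 and −0.96). SETD1B and SMYD2 had cPGC libraries on both sides of the ESC library.

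In the Polycomb group, 1 of 3 genes fell and 0 rose (median log2 ratio −0.03). EZH2 (ENSGALG00000043399, chromosome 2, 54453671 to 54500690) had 2712, 3021 and 3856 counts, or 121, 145 and 217 CPM. Both cPGC libraries were below the ESC library, which was 1.63-fold higher (log2 −0.71 ± 0.24, SE, edgeR adjusted p = 0.039). The call was lost with total counts and with a filter of at least 100 counts. EZH1 (ENSGALG00000003068), the alternative catalytic subunit that predominates in non-dividing mammalian cells, had 602, 493 and 282 counts, or 26.9, 23.7 and 15.9 CPM, higher in both cPGC libraries but with an edgeR adjusted p of 0.0846. JARID2, a PRC2 cofactor without demethylase activity, had 264, 313 and 293 CPM (edgeR adjusted p = 0.946). EZH2 shared 7.7% of its exon bases with a gene on the opposite strand that had 10, 14 and 12 counts.

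Of the 3 methyltransferases of H3K36 found by symbol, 1 fell and 0 rose (mean log2 ratios from −0.97 to −0.75). NSD2 and NSD3, which methylate the same residue but fell outside the choice by symbol, lay on the other side without passing the test, with 211, 246 and 158 CPM and 120, 120 and 97.4 CPM (edgeR adjusted p = 0.12 and 0.322). ASH1L (ENSGALG00000014638, chromosome 25, 2206557 to 2239618), which dimethylates H3K36 and counters Polycomb, had 1172, 1266 and 1962 counts, or 52.3, 60.8 and 110 CPM. The cPGC libraries were close and the ESC library 1.95-fold higher (log2 −0.97 ± 0.23, SE, edgeR adjusted p = 0.00908), a call lost with total counts. SETD2, which trimethylates H3K36 as it travels with RNA polymerase II, had 201, 336 and 438 CPM (edgeR adjusted p = 0.103). NSD1, a dimethyltransferase, had 218, 417 and 539 CPM (edgeR adjusted p = 0.114). For both, cPGC replicate 2 was much lower than cPGC replicate 3, which lay nearer to the ESC library. Of the genes grouped singly for other residues, DOT1L, the H3K79 methyltransferase, had 80.7, 90.9 and 124 CPM (edgeR adjusted p = 0.0876). KMT5B, a methyltransferase of H4K20, had 16.7, 13.2 and 18.6 CPM. SMYD5, also described as a methyltransferase of H4K20, was counted among the other SET or JmjC genes below, where it passed the test.

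The remaining 10 SET or JmjC genes, several of which act on proteins other than histones, included 2 that rose and 2 that fell (median log2 ratio 0.20). JMJD6 (ENSGALG00000001802, chromosome 18, 4287924 to 4299050), a JmjC enzyme that hydroxylates lysines of splicing factors and has been described as an arginine demethylase, had 997, 978 and 3340 counts, or 44.5, 47.0 and 188 CPM. The cPGC libraries were nearly equal and the ESC library was 4.11-fold higher (log2 −2.04 ± 0.22, SE, edgeR adjusted p = 0.000122), the lowest ratio of the 38 genes. SETD6 (ENSGALG00000002247, chromosome 11, 1466697 to 1470782), which methylates the NF-κB subunit RELA, had 417, 490 and 804 counts, or 18.6, 23.5 and 45.3 CPM. The ESC library was 2.15-fold higher than the cPGC mean (log2 −1.10 ± 0.26, SE, edgeR adjusted p = 0.00848). The ratio of cPGC replicate 3 was −0.94, so SETD6 fell just short of a 2-fold difference in that library.

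SMYD5 (ENSGALG00000022920, chromosome 4, 90285101 to 90293347), described as a methyltransferase of H4K20 and of a ribosomal protein, had 1184, 1337 and 561 counts, or 52.9, 64.2 and 31.6 CPM. It was above the ESC library in both cPGC libraries (1.85-fold, log2 0.89 ± 0.26, SE, edgeR adjusted p = 0.0222). A gene on the same strand, with 0 counts in every library, shared 4.16% of its exon bases. SETD3 (ENSGALG00000034802, chromosome 5, 48029089 to 48083082) had 4562, 3986 and 2084 counts, or 204, 191 and 117 CPM. Both cPGC libraries exceeded the ESC library (1.68-fold, log2 0.75 ± 0.25, SE, edgeR adjusted p = 0.0338). The other 6 genes (SETD4, SETD5, SMYD4, JMJD4, JMJD7 and JMJD8) did not pass, with mean log2 ratios from −0.39 to 0.5.

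The cPGC libraries stood on the same side of the ESC library for 30 of the 38 genes, with 16 higher in both and 14 lower in both, and on either side of it or level with it for 8. This was not counted over all genes tested, so it does not set the 38 genes apart. The SD of the log2 difference between the cPGC libraries was 0.34 over the 38 genes and 0.60 over all genes tested. The difference reached 0.5 for NSD1 (0.93), SETD2 (0.74) and EHMT1 (0.59), which were higher in replicate 3, and for SMYD3 (−0.81), which was higher in replicate 2. Across the 38 genes, which share their libraries and are not independent replicates, the difference of replicate 3 from replicate 2 rose with exon length (Spearman's rho 0.62), whereas over all genes tested rho was 0.04. The mean ratio of cPGC to ESC had a rho of −0.15 with exon length over the 38 genes.

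The ratio of 2 genes within a library does not depend on how the library is scaled. It was taken for each of the 5 families with exactly 2 tested members under 1 root symbol, a choice made with their values known, and no test was run. EZH1 reached 0.212 and 0.156 of the TPM of EZH2 in cPGC replicates 2 and 3 and 0.0697 in the ESC library, so the ratio was higher by 1.60 and 1.16 on the log2 scale in cPGCs. EZH2 was the more abundant of the pair in every library. SETDB1 and SETDB2 were near parity in cPGCs (0.878 and 0.852), whereas in the ESC library SETDB1 had 0.28 of the TPM of SETDB2. KDM5A had 1.14 and 0.908 of the TPM of KDM5B in cPGCs and 0.517 in the ESC library. KDM1A exceeded KDM1B in every library, by 13.8 and 12.7 times in cPGCs and by 25.2 times in the ESC library. KDM3A exceeded KDM3B by 1.52 and 1.48 times in cPGCs and by 2.24 times in the ESC library. In each pair the ESC value lay outside the cPGC values, and the gap between the cPGC libraries was at most 0.44 on the log2 scale. Pairs of other genes were not examined, so how often this holds for any pair is not known. The pairs with EZH2, SETDB2 and KDM5A also restate differences of single genes given above.

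**Figure D4:**
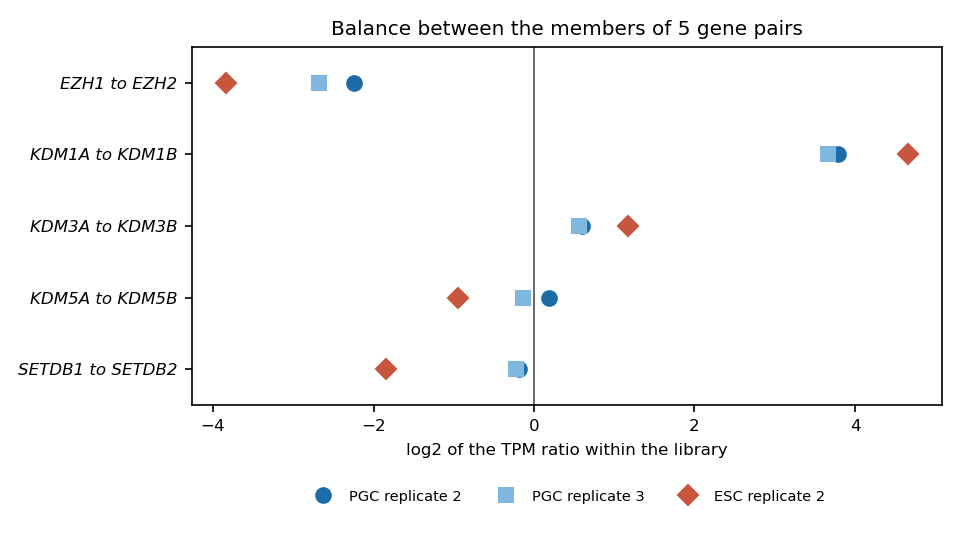
Log2 of the TPM ratio between the members of 5 gene pairs within each library (horizontal axis), with a circle for cPGC replicate 2, a square for cPGC replicate 3 and a diamond for the ESC library. The cPGC libraries lie closer to 0 than the ESC library in every pair, as for SETDB1 to SETDB2 at −0.19 and −0.23 against −1.84.

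The summed TPM of a group weights its abundant genes, and is subject to the median TPM shift of 0.46 given above. The 39 genes summed to 2250, 2100 and 1630 TPM. As a share of that sum, the H3K36 methyltransferases took 5.16% and 8.14% in the cPGC libraries and 10.9% in the ESC library, and the Polycomb group 11.8%, 12.7% and 14.9%. The H3K9 demethylases found by symbol took 18.2%, 19.0% and 14.9%, and the H3K4 demethylases 18.6%, 19.4% and 16.9%. The H3K9 share leaves out KDM4A (99.8, 126 and 104 TPM) and KDM4B (29.5, 24.1 and 21.5 TPM), which fell outside the choice by symbol. How the share would stand with them was not computed. The H3K9 methyltransferases took 11.7%, 10.3% and 11.1%, so that the cPGC libraries stood on both sides of the ESC library. The H3K4 methyltransferases took 13.2%, 10.7% and 10.5%, and DOT1L, for H3K79, 1.35%, 1.41% and 1.93%. For H3K4, the demethylase group thus had a larger share in the cPGC libraries than in the ESC library. The methyltransferase group did so only as grouped here, with a small margin in cPGC replicate 3 (10.7% against 10.5%). That group includes KMT2E (69.6, 50.8 and 29.4 TPM), which has no clear methyltransferase activity. Without KMT2E, the share of the methyltransferase group in cPGC replicate 3 would lie below that in the ESC library. KMT5B, for H4K20, took 1.43%, 1.05% and 1.48%, and the other SET or JmjC genes, SMYD5 among them, 18.7%, 17.3% and 17.4%. These shares carry no test.

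A further 6 enzymes were named by their description in the authors' table, with the symbol left empty, and so fell outside the choice by symbol. KMT5A (ENSGALG00000003325, chromosome 15, 5032733 to 5039363), the monomethyltransferase of H4K20, had 297, 285 and 536 counts. The cPGC libraries were alike and below the ESC library, which was 2.24-fold higher (log2 −1.16 ± 0.28, SE, edgeR adjusted p = 0.00827). With total counts the call was lost (edgeR adjusted p = 0.0598). KDM4A, KDM4B, KDM6A, KMT2A and SETD9 did not pass the test. KDM4A and KDM4B, the paralogs of KDM4C, had log2 ratios of −0.63 and −0.09, and of −0.12 and −0.20. KDM6A, a demethylase of H3K27, had 128, 150 and 111 CPM, with an edgeR adjusted p of 0.301 that became 0.0455 with total counts.

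Partner proteins, suppliers of cofactors and further enzymes, including arginine methyltransferases and PRDM genes, were examined through 10 lists of 114 symbols in all, of which 73 were matched and 71 tested. By the edgeR test 15 rose in cPGCs (21.1%) and 7 fell (9.86%), beside 21.2% and 20.6% of all genes. The same shares over all genes stand beside each list below, and the single lists are too small to be set apart from them. Of 8 PRC2 partners, 0 rose and 1 fell, RBBP4, a histone-binding subunit shared with other complexes (8611, 10044 and 17612 counts, log2 −1.19 ± 0.30, SE, adjusted p = 0.0105). Of 9 COMPASS subunits, which serve the H3K4 methyltransferases, 0 rose and 1 fell, ASH2L (log2 −0.75, edgeR adjusted p = 0.0295). Of 7 H3K9 methylation partners, 2 rose and 0 fell. These were CDYL2, a chromodomain protein (508, 310 and 95 counts, log2 1.81, edgeR adjusted p = 0.0054), and PPHLN1, a subunit of the HUSH silencing complex (log2 0.88, edgeR adjusted p = 0.0188).

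Of 10 genes listed around the KDM1A complex, not all of them its subunits, 2 rose and 1 fell. GFI1, a repressor that recruits it, had 133 and 60 counts in the cPGC libraries and 0 in the ESC library (edgeR adjusted p = 0.00087). RCOR1, the CoREST scaffold, fell (606, 677 and 1104 counts, log2 −1.06, edgeR adjusted p = 0.00743), beside KDM1A itself at −0.55. Of 7 genes listed around DOT1L, not all of them its direct partners, 3 rose and 1 fell. MLLT3, the YEATS domain reader, which lies on the Z chromosome, had 1012, 783 and 176 counts (log2 2.06, edgeR adjusted p = 0.000588), and AFF2 and MLLT10 rose by 1.71 and 0.95. AFF4, the scaffold of the super elongation complex, had 893, 840 and 2061 counts (log2 −1.53, edgeR adjusted p = 0.000693). Of 4 partners of KDM2B, 1 rose, the ubiquitin ligase RNF2 (log2 1.14, edgeR adjusted p = 0.00658), and 0 fell.

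For other enzyme families the calls of single genes were as follows, beside 21.2% higher and 20.6% lower over all genes tested. With so few genes in each, they do not set any family apart. Of 4 protein arginine methyltransferases, PRMT3 rose (log2 0.71, edgeR adjusted p = 0.0446) and PRMT7 fell (log2 −1.02, edgeR adjusted p = 0.00771). Of 8 PRDM genes, whose PR domain is related to the SET domain, 3 rose and 0 fell, among them PRDM16 and MECOM with log2 values of 4.11 and 2.62. PRDM16 had 130, 85 and 5 counts (SE 0.72), so the size of its ratio rests on an ESC value near the floor. Of 5 further JmjC or SET enzymes outside the symbol rule, 2 rose and 0 fell, namely RIOX1, a ribosomal oxygenase (1878, 1635 and 442 counts, log2 1.71, edgeR adjusted p = 0.000819), and HSPBAP1 (log2 1.18).

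The enzymes that supply S-adenosylmethionine and 2-oxoglutarate or remove the product of methylation included 1 gene that rose and 2 that fell among 9. Over all genes tested, 21.2% were called higher and 20.6% lower. MAT2B, the regulatory subunit of methionine adenosyltransferase, had 5548, 5004 and 763 counts, with both cPGC libraries far above the ESC library (log2 2.51 ± 0.27, SE, edgeR adjusted p = 0.000118). AHCY, which hydrolyses S-adenosylhomocysteine, the inhibitory product of methyl transfer, had 4640, 4370 and 10330 counts, with both cPGC libraries far below (log2 −1.48 ± 0.25, SE, edgeR adjusted p = 0.00149). IDH2, a mitochondrial source of 2-oxoglutarate, fell (log2 −0.75, edgeR adjusted p = 0.0257).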

How the data were processed

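The authors deposited raw counts (integers, without normalization) for each gene. Per the study's methods, the authors aligned paired-end reads to the Ensembl transcripts of galGal5 with TopHat and Bowtie 2 and counted them with featureCounts. Versions and the strand setting are not given in the sources used here, so reads of overlapping genes cannot be told apart. The authors' second table held a normalized signal per library, equal to the count over 1 size factor in 100.0% of genes, used here for checking only. It also held their fold changes and p-values, which were not used, as were 4 columns of per-sample values, for a replicate 1 of each cell type in both tables, that match no label. Coordinates are those of galGal5 in the count table.

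Counts were filtered to at least 10 in 1 library (14489 genes), scaled by TMM and tested with edgeR 4.0.16 in R 4.3.3 (glmQLFit and glmQLFTest, 1 residual and 8.92 prior degrees of freedom) with Benjamini-Hochberg adjustment over all genes. SE is the log2 fold change over the root of the F statistic. Log2 ratios used CPM with a prior count of 2. DESeq2 1.42.0, other scalings, filters, prior counts and thresholds were tried. The code was tested on simulated data. Each gene past the test or the 2-fold rule was given in full, and the others by group with the most abundant named. Further genes were named after their values were seen. The genes and lists were chosen with earlier results of these data known. Lists and roles were compiled from general knowledge, and symbols were matched without regard to case and through synonyms of a RefSeq table (GRCg7b), used for names alone. Some genes of these lists are not reported here by name.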

Additional observations from a re-analysis of the deposited data

How the results depend on the processing

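No paired analysis was possible because the groups share only replicate number 2. Leaving out a cPGC library leaves 1 against 1, so the edgeR test has no such value. The 2-fold counts without 1 cPGC library ranged from 3 to 4 for genes higher in cPGCs and from 2 to 6 for genes lower. The 6 came without cPGC replicate 3 and added SETD6, ASH1L, NSD1 and SETD2. RLE factors, no filter and DESeq2 called the same 5 genes higher and 5 lower, and at least 100 counts lost EZH2. Total counts gave 9 higher and 3 lower, and an adjusted p under 0.01 gave 2 higher (KDM4C and KDM5A) and 4 lower. Of the 2-fold counts, TPM gave 6 higher, a 4-fold threshold gave 0 higher and 0 lower, and a 1.5-fold threshold gave 5 higher and 4 lower. For these settings, and without 1 cPGC library, the shares over all genes tested are not given. These counts therefore do not set the 38 genes apart. The median log2 ratio moved to 0.33 with total counts and to 0.47 with TPM, with the median of all genes moving by 0.31 and 0.46. The sign of the mean ratio changed for 5 genes with total counts, 8 with TPM, 5 without cPGC replicate 2, 2 without cPGC replicate 3 and 0 with RLE factors or a prior count of 0.5, and for 0 of the 10 genes past the test under any of these. Of the 38 genes, 37 had at least 100 counts in the ESC library and 38 in each cPGC library, and the test rests on 1 residual degree of freedom. Over all genes, an adjusted p under 0.01 called 1766 genes higher (12.2%) and 1730 lower (11.9%) in place of 3069 and 2979. Total counts called 4161 (28.7%) and 2063 (14.2%).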
